A study of Mus musculus with 18 samples.

Results

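Wild-type Th1-polarized mouse T cells of set 6 were compared with those of set 5. The comparison took 6 of the 18 libraries of the series, 3 in each set, chosen by their labels (WT61 to WT63 against WT51 to WT53) and tested over all 12547 measured genes. All 18 libraries came from naive CD4 T cells stimulated through CD3 and CD28 with antibody-coated beads, in IMDM with 10% FBS, 10 ng/ml IL2, 10 ng/ml IL12 and 10 ug/ml of an antibody to IL4. The other 12 libraries were wild-type cells of set 3 and Id3 KO cells of sets 3, 5 and 6, with 3 libraries in each group. The labels state neither what separates the sets nor whether libraries of a group came from different mice, and give no age, so p-values measure only the spread between these libraries, which may be technical. In the authors' deposited table, the names of contrasts give sets 5 and 6 the number 96 and set 3 the number 24, with no unit. Therefore no time, dose or treatment is attached here to the step from set 5 to set 6.

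Th1 cells are the helper T cells whose signature product is interferon gamma. IL12 acts through a 2-chain receptor to favour them, and blocking IL4 removes the main signal for Th2 cells, which make IL4, IL5 and IL13. An activated T cell also loses proteins of the naive state, among them the factor KLF2, with which naive cells keep recirculating through lymph nodes. The aryl hydrocarbon receptor, AHR, is a ligand-activated transcription factor that pairs with ARNT, binds DNA at a short core motif and raises genes such as Cyp1a1 and its own repressor, Ahrr.

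Against set 5, wild-type cells of set 6 had more transcripts of the AHR pathway, of the cytokines IL5, IL13 and IL21 and of NK-type receptors, and fewer of Klf2, a factor gene of naive T cells, and of Pdlim4. Each NK-type receptor gene that passed, and Klf2, lost its limma adjusted p under 0.05 when certain single libraries were left out. By limma with Benjamini-Hochberg adjustment, 423 of 12547 genes (3.37%) had an adjusted p under 0.05, 378 higher (3.01%) and 45 lower (0.359%) in set 6. Of these, 157 were higher and 14 lower by a log2 difference of 1 or more. The median difference over all genes was 0.06. After each library was centred on its median, 258 genes were called (2.06%), 187 higher (1.49%) and 71 lower (0.566%), so the share of calls that were higher went from 89.4% to 72.5%. With the replicate number as a block, 1517 genes (12.1%) were called, 1209 higher (9.64%) and 308 lower (2.45%), and 403 of the 423 kept their call and direction. The block fit used only the 6 wild-type libraries of sets 5 and 6, which gave 643 calls of 12547 genes without the block. With block and centring together 1333 were called (10.6%), 734 higher (5.85%) and 599 lower (4.77%). For comparison, 3532 genes (28.2%) had wild-type values that did not overlap between the sets, 2622 higher (20.9%) and 910 lower (7.25%) in set 6. Leaving out 1 library gave 385 calls without set 6 replicate 1, 118 without replicate 2 and 113 without replicate 3, and 129, 238 and 217 without set 5 replicates 1, 2 and 3. In all, 79 higher and 8 lower genes were called in each of these 6 fits. The plot of differences against level shows where the named genes lay.

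**Figure D1:**
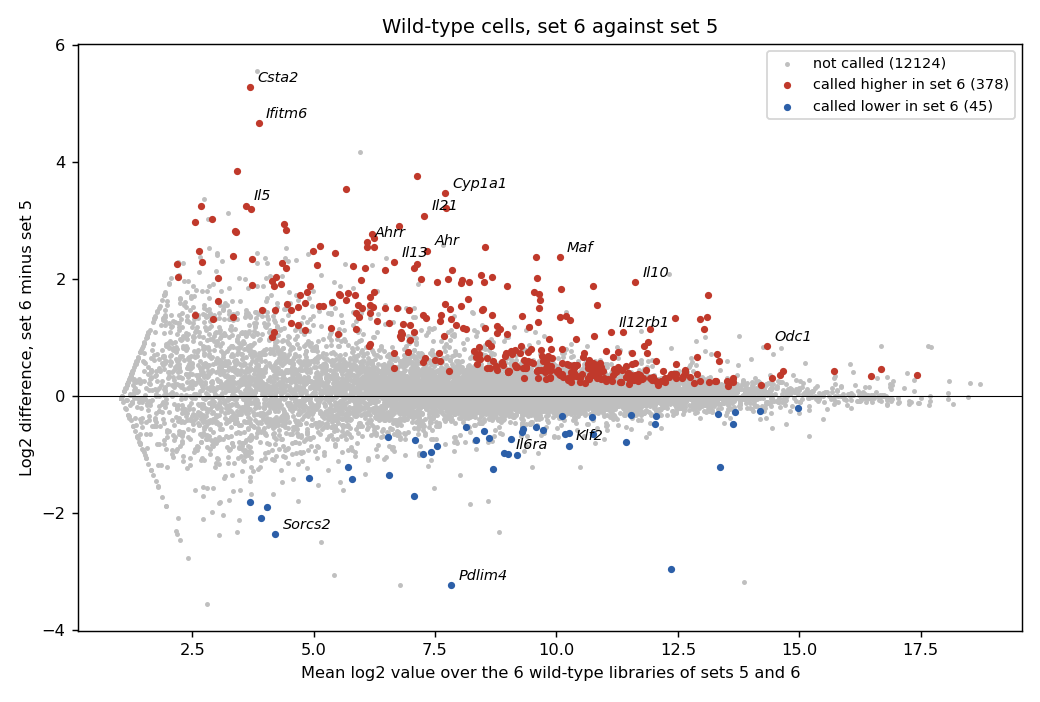
Each point is 1 of 12547 genes, with its mean log2 value over the 6 wild-type libraries on the x axis and the log2 difference, set 6 minus set 5, on the y axis. Red points are the 378 genes called higher and blue points the 45 called lower by limma at an adjusted p under 0.05; Cyp1a1, Il5 and Il21 stand high above 0, and Pdlim4 far below it.

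Some facts of the libraries bear on all values. The deposited values were taken to be on a log2 scale, with a median of 9.18 in the libraries of set 5 and 9.25 in those of set 6. Within the 2 groups 97.1% and 97.9% of the sorted values were equal to within 1e-06, so values had been equalized within groups, and the depth of each library is unknown. The lowest value of a library, 1.01 to 1.10 here, was shared by 203 to 330 genes. Id3, the gene deleted in the KO cells, stood at 9.53, 8.92 and 8.85 in set 5 and at 9.49, 9.16 and 8.89 in set 6, against at most 5.63 in the KO libraries of both sets. In a principal component analysis of the 6 wild-type libraries the first component held 40.3% of the variance, with set 5 at -36.0, -19.9 and -21.8 and set 6 at 14.3, 28.9 and 34.7. Since the RNA came from whole cultures, a change in the share of a cell type and a change in RNA per cell cannot be told apart.

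In the AHR pathway, the receptor gene and several of its targets rose. Of 9 measured genes of this pathway, a list drawn up after the values were seen, 6 were higher and none lower (all genes 3.01% and 0.359%). The median difference was 2.25. Ahr itself had log2 values of 5.65, 6.14 and 6.52 in set 5 and 8.12, 8.73 and 8.89 in set 6. Every set 6 library lay above every set 5 library, a difference of 2.48 (SE 0.25; adjusted p = 0.000162 by limma), or 5.56-fold on the deposited scale. Cyp1a1, a monooxygenase gene that AHR induces, stood at 5.42, 5.93 and 6.56 in set 5 and at 9.03, 9.40 and 9.85 in set 6. The groups did not overlap, and the difference was 3.46 (SE 0.51; limma adjusted p = 0.00147). Ahrr, the AHR repressor, went from 4.44, 5.33 and 4.59 to 7.40, 7.35 and 7.49 (difference 2.63, SE 0.29; limma adjusted p = 0.000234). Cyp1b1, another AHR-induced monooxygenase gene, rose by 2.25 (SE 0.40; 0.00622) and Tiparp, an ADP-ribosyltransferase gene that restrains AHR, by 1.02 (SE 0.15; 0.00147). Arnt2, an ARNT relative, rose by 2.54, a call lost without set 6 replicate 2 or 3 or set 5 replicate 1 (limma adjusted p = 0.0638 to 0.0811). The partner Arnt differed by -0.01. Nqo1, a quinone reductase gene induced both by AHR and by oxidative stress, differed by 0.06 (limma adjusted p = 0.923). Outside the list, Asb2, a ubiquitin ligase subunit gene, rose by 2.37 (SE 0.29; limma adjusted p = 0.000479).

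The promoters of 4 of these genes are shown because the core motif that AHR with ARNT binds, GCGTG on either strand (CACGC when read on the strand shown), can be looked for in them. Each window is the 250 bases before the gene's start, 5′ to 3′ on the gene's strand, from RefSeq on GRCm38.p6, and matches are in capitals. The authors' notes name the later GRCm39 assembly, and these coordinates are not on it. The windows are chr9:57697363-57697612 on the plus strand for Cyp1a1, chr17:79715062-79715311 on the minus strand for Cyp1b1, chr13:74292332-74292581 on the minus strand for Ahrr and chr3:65528197-65528446 on the plus strand for Tiparp.
Cyp1a1: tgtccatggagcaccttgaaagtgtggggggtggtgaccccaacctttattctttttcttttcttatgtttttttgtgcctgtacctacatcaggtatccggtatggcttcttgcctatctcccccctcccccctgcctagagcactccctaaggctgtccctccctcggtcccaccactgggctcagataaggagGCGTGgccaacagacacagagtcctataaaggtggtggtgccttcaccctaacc
Cyp1b1: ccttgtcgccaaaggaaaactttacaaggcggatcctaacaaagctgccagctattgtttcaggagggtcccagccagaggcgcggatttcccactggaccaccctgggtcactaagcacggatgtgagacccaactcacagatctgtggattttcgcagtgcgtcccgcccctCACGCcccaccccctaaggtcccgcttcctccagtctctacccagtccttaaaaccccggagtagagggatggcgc
Ahrr: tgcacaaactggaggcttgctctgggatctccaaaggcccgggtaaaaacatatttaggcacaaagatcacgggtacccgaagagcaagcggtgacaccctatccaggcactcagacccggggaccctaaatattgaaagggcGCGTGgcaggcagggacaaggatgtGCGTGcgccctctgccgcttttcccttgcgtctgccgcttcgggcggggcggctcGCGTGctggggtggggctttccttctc
Tiparp: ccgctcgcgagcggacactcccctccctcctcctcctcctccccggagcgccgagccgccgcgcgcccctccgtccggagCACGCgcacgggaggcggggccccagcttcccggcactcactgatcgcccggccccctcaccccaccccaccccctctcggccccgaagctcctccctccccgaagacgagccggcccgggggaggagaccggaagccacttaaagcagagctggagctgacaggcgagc
Ahrr held 3 matches and each of the other windows 1. A match this short was common: 28.2% of all 32851 windows of this length held one. Counted by gene, a match in any window of that gene sufficed, so these shares are not on the scale of single windows. By gene, 49.6% of the 9978 measured genes with a window had a match, and 47.9% (140 of 292) of the genes called higher with a window. The share among called genes was thus near that of all measured genes, and a match is a description of letters, not a site. Of the 9 measured AHR pathway genes, 7 had a window.

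**Figure D2:**
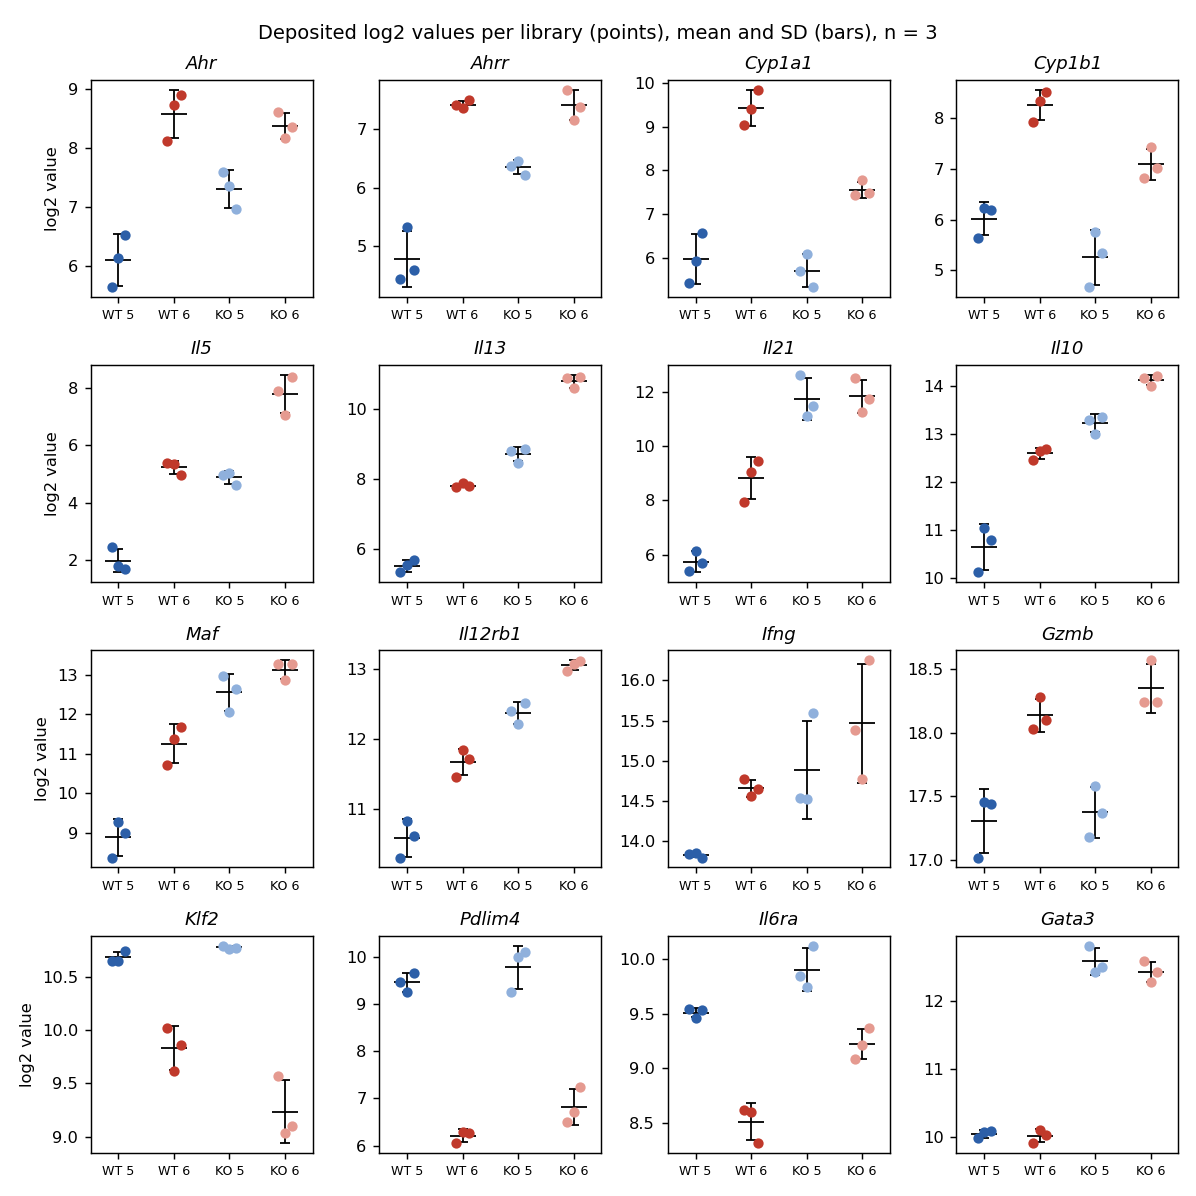
Each panel shows 1 gene, with the deposited log2 value of every library as a point for wild-type (WT) and Id3 KO cells of sets 5 and 6; bars give the mean and the SD (n = 3). The AHR pathway genes in the top row, the cytokine genes and Maf lie higher in wild-type set 6 than in set 5 without overlap, Klf2, Pdlim4 and Il6ra lie lower, and Gata3 overlaps between the wild-type sets.

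Of 29 measured cytokine genes 9 were higher and none lower (all genes 3.01% and 0.359%), with a median difference of 0.70. Il5, the eosinophil growth factor gene, stood at 2.45, 1.79 and 1.70 in set 5 and at 5.38, 5.34 and 4.98 in set 6, a difference of 3.25 (SE 0.36; limma adjusted p = 0.000234). Its neighbour in the Th2 cytokine cluster, Il13, went from 5.33, 5.55 and 5.67 to 7.77, 7.87 and 7.79 (difference 2.29, SE 0.37; limma adjusted p = 0.00288). Il4, the third cytokine of that cluster, had 8.99, 8.79 and 8.69 in set 5 and 9.18, 9.89 and 9.50 in set 6; the difference of 0.70 (SE 0.46) did not pass (limma adjusted p = 0.474). Il5 and Il13 thus had set 6 values wholly above set 5, as had Il4 by a narrow margin. Gata3, the factor that directs the Th2 programme, was at 9.99, 10.08 and 10.09 in set 5 and at 9.92, 10.11 and 10.04 in set 6 (limma adjusted p = 0.933), overlapping throughout.

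Il21, a cytokine that acts on B cells and cytotoxic cells, rose from 5.39, 6.15 and 5.68 to 7.95, 9.05 and 9.45 (difference 3.08, SE 0.44; limma adjusted p = 0.00144). Maf, a transcription factor gene whose product activates Il21, Il4 and Il10, rose from 8.37, 9.28 and 9.0 to 10.72, 11.36 and 11.68 (difference 2.37, SE 0.39; limma adjusted p = 0.00327). For both genes the lowest set 6 library exceeded the highest set 5 library by more than 1. Penk, the precursor of enkephalins, rose by 2.81 (SE 0.36), Spp1, which encodes osteopontin, by 1.94 (SE 0.33) and Csf1, the macrophage growth factor gene, by 1.66 (SE 0.20), with limma adjusted p of 0.000594, 0.00501 and 0.000479. Il10, an anti-inflammatory cytokine gene, rose by 1.94 (SE 0.47; 0.0323), Tgfb3 by 2.0 and Il16 by 0.37. The calls on Il10 and Il16 were lost without any 1 of the 6 libraries (limma adjusted p = 0.0532 to 0.151 and 0.0512 to 0.097), and also after centring (0.0506 and 0.0723). The call on Tgfb3 was lost without set 6 replicate 2 or 3 or set 5 replicate 1 or 2 (0.0591 to 0.16) and after centring (0.0506). Il2, the T cell growth factor gene, and Il22 differed by 0.97 and 2.30 and did not pass (limma adjusted p = 0.56 and 0.205); with the block Il22 passed (0.0451).

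On the Th1 list, both chains of the IL12 receptor rose. Of 28 measured Th1 programme genes 3 were higher (10.7%, all genes 3.01%) and none lower, with a median of 0.43. With the block 14 were higher and 2 lower (all genes 9.64% and 2.45%). Il12rb1, the receptor chain that IL12 shares with IL23, went from 10.30, 10.83 and 10.61 to 11.46, 11.84 and 11.71 (difference 1.09, SE 0.12; limma adjusted p = 0.000234). Il12rb2, the chain particular to IL12, rose by 1.14 (SE 0.27; 0.0321) and the chemokine gene Ccl5 by 1.29 (SE 0.29; 0.0239). Ifng, which encodes interferon gamma, stood at 13.84, 13.86 and 13.80 in set 5 and at 14.77, 14.56 and 14.65 in set 6. The sets did not overlap, but the pooled spread over 18 libraries gave a limma adjusted p of 0.169 for the difference of 0.83 (SE 0.32). With the block, fitted to the 6 libraries of these sets alone, it was 0.00213. Tbx21, the gene of the Th1 factor T-bet, differed by 0.17 and Stat4, which transmits the IL12 signal, by 0.16, and neither passed with or without the block. Cxcr3, a Th1 chemokine receptor gene, differed by 0.38 (limma adjusted p = 0.352, and 0.0208 with the block). The call on Il12rb2 was lost without set 6 replicate 2 or 3 or any 1 set 5 replicate (limma adjusted p = 0.0768 to 0.133) and after centring (0.0565). That on Ccl5 was lost without any 1 of the 6 libraries except set 6 replicate 2 (0.0531 to 0.107).

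Th17-related genes moved both ways. Of 19 measured members, Ahr, Il21, Podnl1 and Ccr6 rose (21.1%, all genes 3.01%) and Il6ra fell (5.3%, all genes 0.359%). The median was 0.76. Il6ra, the IL6 receptor gene, went from 9.54, 9.46 and 9.53 to 8.62, 8.6 and 8.32 (difference -1.0, SE 0.14; limma adjusted p = 0.000968). Ccr6, a chemokine receptor gene of Th17 cells, went from 2.97, 2.83 and 2.57 to 3.76, 5.0 and 5.29, a call lost with the block (limma adjusted p = 0.0514) and without set 6 replicate 2 or 3 or set 5 replicate 3 (0.0511 to 0.0829). Il17a, the Th17 cytokine gene, was at the lowest value in all 3 set 5 libraries and at 2.17, 2.74 and 2.03 in set 6, and no fold is given.

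Of 34 measured cytokine receptor genes, Il12rb1, Il12rb2, Il9r and Il1r2 were higher (11.8%, all genes 3.01%) and Il6ra lower (2.9%, all genes 0.359%), and 29 did not pass. Il9r, the IL9 receptor gene, went from 1.91, 1.03 and 1.21 to 4.33, 3.85 and 5.07, and Il1r2, the decoy receptor of IL1, from 2.11, 4.51 and 2.39 to 5.33, 6.02 and 6.16. Both calls rested on low values: that on Il9r was lost without any 1 of the 6 libraries (limma adjusted p = 0.0548 to 0.134), and that on Il1r2 without set 6 replicate 2 or 3 or set 5 replicate 1 or 3 (0.0924 to 0.122). Il2ra, the high-affinity IL2 receptor chain, differed by 0.12 and Il7r, the IL7 receptor chain, by 0.81 (limma adjusted p = 0.689 and 0.068); with the block Il7r passed (0.00859).

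Of 21 measured costimulatory receptors and ligands of the TNF and CD28 families 6 were higher (28.6%, all genes 3.01%), none was lower and 15 did not pass. Tnfsf11, which encodes RANKL, went from 7.70, 7.34 and 7.17 to 9.22, 9.64 and 9.57 (difference 2.07, SE 0.31; limma adjusted p = 0.00156). Tnfrsf8, which encodes CD30, had 3.98, 6.19 and 5.77 in set 5 and 7.77, 8.33 and 8.55 in set 6, with set 5 replicate 1 well below the others (difference 2.91; 0.0138). Tnfrsf4 (OX40) rose by 0.33, Tnfrsf1b (the second TNF receptor) by 0.40, Icos by 0.71 and Tnfsf14 (LIGHT) by 1.16. Leaving out 1 library ended 5 of these calls, with Tnfsf11 the exception: Tnfrsf8 without set 6 replicate 2 or 3 or set 5 replicate 1 (limma adjusted p = 0.0643 to 0.0786), Tnfrsf4 without set 6 replicate 2 or 3 (0.0553 and 0.0591), Tnfrsf1b without set 6 replicate 3 (0.0667). Icos lost it without any 1 library except set 6 replicate 1 (0.08 to 0.164), and Tnfsf14 without any 1 except set 5 replicate 2 (0.0629 to 0.17). Icos and Tnfsf14 also lost it after centring (0.0723 and 0.0684), and Tnfsf14 with the block (0.0871).

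Among cytotoxic genes 3 receptors passed the test and no granzyme did. Of 24 measured cytotoxic molecules 3 were higher (12.5%, all genes 3.01%) and none lower, with a median of 0.82. With the block 14 were higher and none lower (all genes 9.64% and 2.45%). The 3 are lectin-like receptors that lie close together in the NK gene complex. Klrk1, which encodes NKG2D, went from 5.62, 7.75 and 6.98 to 9.22, 8.97 and 8.6 (difference 2.15, SE 0.43; limma adjusted p = 0.0129). Klrc1, which encodes NKG2A, rose by 1.95 (SE 0.40; 0.0135) and its partner Klrd1, CD94, by 1.55 (SE 0.35; 0.0255). Of 22 measured Klr receptor genes, a family counted after its values were seen, 6 were higher (27.3%, all genes 3.01%) and none was lower. All 22 differences were above 0, with a median of 1.55 against 0.06 over all genes. Among the 6, Klrb1f lost the call without set 6 replicate 2 or 3 or set 5 replicate 1 (limma adjusted p up to 0.0892). Klrg1 lost it without any 1 library (0.0518 to 0.195) and after centring (0.069). Gzmb, which encodes granzyme B and stood among the highest levels of all, went from 17.02, 17.46 and 17.44 to 18.03, 18.28 and 18.10. Its sets did not overlap, yet the difference of 0.83 did not pass (limma adjusted p = 0.0985; 0.0044 with the block). Gzma, granzyme A, differed by 2.08 (0.0509; 0.00658 with the block) and Prf1, perforin, by 0.98 (0.0797; 0.0162 with the block). The call on Klrk1 was lost without set 6 replicate 2 or set 5 replicate 1 (0.0555 and 0.055) and that on Klrc1 without set 6 replicate 3 or set 5 replicate 1 (0.0658 and 0.0632). That on Klrd1 was lost without any 1 library except set 5 replicate 2 (0.0532 to 0.129).

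Of 13 measured markers of NK cells 1, Klrc2, was called higher by limma (7.7%, all genes 3.01%) and none lower. The median was 1.54, and 6 were higher and none lower at an unadjusted p under 0.05 (2249 of all 12547 genes either way). With the block 2 were higher and 1 lower (all genes 9.64% and 2.45%). Their summed level, on the log2 scale, ran from 10.30 to 12.35 in set 5 and from 12.65 to 13.98 in set 6. This sum was mostly that of Gzma, which alone stood at 9.72, 12.19 and 11.94 in set 5 and at 12.49, 13.91 and 13.67 in set 6. The 2 NK markers at the lowest value in all 3 set 5 libraries were Ncr1 and Klra8. In set 6, Ncr1 was at the lowest value in 2 libraries and at 2.26 in replicate 1, and Klra8 stood at 3.12, 2.04 and 3.25. Of 10 measured markers of macrophages and monocytes, Cd68, Ccr2 and Fcgr3 were higher (30%, all genes 3.01%) and none was lower. Their list median was 1.48, and 6 of the 10 were higher and none lower at an unadjusted p under 0.05. The log2 sums of the 10 were 8.99 to 10.02 in set 5 and 10.82 to 11.52 in set 6. They were led by Ccr2, which activated T cells also express. Of the 10, Lyz2 was at the lowest value in all 6 libraries, and Cybb in all 3 of set 5 but at 2.04, 3.25 and 2.24 in set 6. Cd68, a lysosomal protein gene, went from 7.09, 7.11 and 7.55 to 8.38, 8.70 and 9.31 (difference 1.54, SE 0.27; limma adjusted p = 0.00524). The call on Ccr2 was lost without set 6 replicate 2 or 3 or set 5 replicate 1 (limma adjusted p = 0.0661 to 0.097). The calls on Fcgr3 (without any 1 library; 0.0516 to 0.192) and Klrc2 (without any 1 except set 6 replicate 2; 0.0518 to 0.182) were lost too. Both were also lost after centring (0.0723 and 0.0669), and Klrc2 with the block (0.0847). Of 4 measured markers of fibroblasts and stroma, Epcam, an epithelial adhesion gene, was higher by 1.34 (limma adjusted p = 0.021). All 4 had non-overlapping higher values in set 6 (all genes 20.9%), and 2 were higher with the block (all genes 9.64%). Their log2 sums were 9.6 to 9.65 in set 5 and 9.85 to 10.14 in set 6, led by Pecam1. The call on Epcam was lost without any 1 library except set 6 replicate 3 (0.0564 to 0.1). No marker of B cells (8 measured), dendritic cells (9), granulocytes and mast cells (10), erythroid cells (9), γδ and NKT cells (5) or CD8 T cells (2) was called by limma. With the block 1 erythroid marker was lower (all genes 2.45%) and both CD8 markers were higher (all genes 9.64%). The 10 measured CD4 T cell markers had log2 sums of 16.90 to 16.97 in set 5 and 16.95 to 17.09 in set 6, with none called. For these, 3 were higher and 1 lower with the block (all genes 9.64% and 2.45%). Over these 7 lists 6 of 53 genes were higher and 2 lower at an unadjusted p under 0.05, where 2249 of all 12547 genes passed in either direction. The part of other cell types in the receptor and granzyme values was not tested.

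Some inhibitory receptor and regulatory T cell genes passed the test. Of 24 measured inhibitory receptor and exhaustion genes Pdcd1, Ctla4 and Rgs1 were higher (12.5%, all genes 3.01%) and none lower, with a median of 0.59. Pdcd1, which encodes PD-1, went from 6.53, 7.03 and 7.29 to 8.05, 8.13 and 8.52 (difference 1.28, SE 0.23; limma adjusted p = 0.00721). Ctla4, an inhibitory relative of CD28, rose by 0.92 (SE 0.24; 0.0422) and Rgs1, a brake on chemokine receptor signals, by 1.33 (SE 0.28; 0.0158). Of 17 measured regulatory T cell genes 6 were higher (35.3%, all genes 3.01%), and Foxp3, the factor that defines that lineage, was the 1 lower. Foxp3 went from 6.36, 5.89 and 6.68 to 5.11, 5.21 and 4.98, without overlap (difference -1.21, SE 0.32; limma adjusted p = 0.0498). Ebi3, a subunit of IL27 and IL35, rose by 2.18 (SE 0.41; 0.00905) and Itgae, the CD103 integrin chain, by 1.76 (SE 0.42; 0.0312). Leaving out 1 library ended each of these calls: Pdcd1 without set 6 replicate 3 (limma adjusted p = 0.0516), Ebi3 without set 6 replicate 3 or set 5 replicate 1 (0.0582 and 0.0578), Rgs1 without any 1 except set 6 replicate 1 and set 5 replicate 2 (0.0552 to 0.0906). Ctla4 (0.0745 to 0.177) and Itgae (0.0581 to 0.135) lost it without any 1 except set 6 replicate 1, and Foxp3 without any 1 (0.0527 to 0.175). After centring Ctla4 lost the call (0.0741).

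On the list of naive, memory and stem-like genes, 5 of 29 measured were lower (17.2%, all genes 0.359%), Myb was higher and 23 did not pass. The median was -0.36. After centring 7 were lower and 1 higher (all genes 0.566% and 1.49%). With the block 15 were lower and 4 higher (all genes 2.45% and 9.64%). Klf2, the factor that activates S1pr1, went from 10.65, 10.65 and 10.74 to 10.02, 9.61 and 9.86 (difference -0.85, SE 0.16; limma adjusted p = 0.0106). Every set 6 library lay below every set 5 library. S1pr1, the receptor with which T cells leave lymph nodes, had 10.28, 9.79 and 10.25 in set 5 and 9.34, 8.78 and 9.27 in set 6, with no overlap (difference -0.98, SE 0.33; limma adjusted p = 0.12, and 0.00213 with the block). Ccr7, a lymph node homing receptor gene, differed by -0.55 (limma adjusted p = 0.0574; 0.044 after centring and 0.00644 with the block). Lef1 and Tcf7, factor genes of naive T cells, differed by -0.46 and -0.36 (0.0632 and 0.287), and with the block both passed (0.00435 and 0.00844). Calls lower also included Nsg2 (-1.25), the actinin gene Actn1 (-1.01) and Als2cl (-0.66), and Myb, a factor of progenitor-like T cells, rose by 1.57. Without set 6 replicate 2, Klf2 (limma adjusted p = 0.0661), Nsg2 (0.0943), Actn1 (0.0843) and Myb (0.0715) lost their calls. Other libraries that ended a call were set 5 replicates 1 and 3 for Nsg2 (0.0788 and 0.068), set 6 replicate 1 and set 5 replicates 2 and 3 for Actn1 (0.0729, 0.0624 and 0.0963), set 6 replicate 3 and set 5 replicate 1 for Myb (0.0667 and 0.0694), and any 1 for Als2cl (0.0718 to 0.159).

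Beyond the lists, the fall with the smallest adjusted p was that of Pdlim4, which encodes an actin-associated PDZ and LIM domain protein. It went from 9.47, 9.25 and 9.65 to 6.06, 6.30 and 6.28 (difference -3.24, SE 0.30; limma adjusted p = 5.08e-05). Sorcs2, a sorting receptor gene, fell by 2.36 (SE 0.35; 0.00147) and Atp1b1, a sodium pump subunit gene, by 1.72 (SE 0.31; 0.00711). Tagap, a GTPase-activating protein gene of T cells, fell by 0.98 (SE 0.15; limma adjusted p = 0.00152). The calls on these 4 genes held without any 1 library. Of the other large falls, Plat (-2.09), Tex45 (-1.90), Gprc5b (-1.82), Amigo2 (-1.42), Rnf144a (-1.41) and Acsl6 (-1.35) lost the call without set 6 replicate 2 (limma adjusted p = 0.105, 0.0746, 0.0843, 0.056, 0.109 and 0.115) and also without other single libraries. Set 5 replicate 1 did so for all 6 of these (0.063 to 0.15) and set 6 replicate 3 for all but Amigo2 (0.077 to 0.183). Set 5 replicate 2 did so for Tex45, Gprc5b, Rnf144a and Acsl6 (0.0586 to 0.119) and set 5 replicate 3 for Plat, Gprc5b, Rnf144a and Acsl6 (0.0562 to 0.0867). Myo6, a myosin gene with a high level, went from 13.97, 13.90 and 14.04 to 12.82, 12.72 and 12.72. Its sets were well apart, with a limma adjusted p of 0.0344, and the call was lost without any 1 library (0.0625 to 0.123), in a fit whose spread is shared over all 6 groups.

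Among the rises by the naming rule, several genes went from at or near the lowest value to a clear signal. Csta2, a stefin A protease inhibitor gene with near-identical neighbours that makes its value uncertain, was at the lowest value of each set 5 library (1.10, 1.03 and 1.03) and at 6.18, 6.08 and 6.75 in set 6. Ccl12, a monocyte chemokine gene, and Csn2, a casein gene, were also at the lowest value in all 3 set 5 libraries, and at 3.79, 3.77 and 5.32 and at 4.0, 4.35 and 3.77 in set 6. No fold is given for these 3 genes. Ifitm6 went from 1.10, 1.03 and 2.48 to 5.47, 6.39 and 6.75 (difference 4.66, SE 0.81; limma adjusted p = 0.00524). Other members of its family of membrane proteins against viral entry moved with it. Of 6 measured Ifitm genes, counted after the values were seen, 4 were higher (all genes 3.01%) and none was lower. All 6 had higher, non-overlapping values in set 6 (all genes 20.9%). Ifitm1 went from 11.26, 12.80 and 12.67 to 14, 13.97 and 13.96, and Ifitm2 and Ifitm3 rose by 1.35 and 1.14. On the wider interferon-stimulated list 1 of 59 measured members was higher, Gbp6 (1.7%, all genes 3.01%), with a median of 0.14. With the block 12 were higher and 3 lower (all genes 9.64% and 2.45%). At an unadjusted p under 0.05 without the block, 8 were higher and 1 lower (2249 of all 12547 genes either way). Isg15 differed by -0.14. Calls lost without 1 library were Ifitm1 without any set 6 replicate or set 5 replicate 1 (limma adjusted p = 0.0564 to 0.126), Ifitm2 without set 6 replicate 3 or set 5 replicate 1 (0.0537 and 0.0521), and Ifitm3 and Gbp6 without set 6 replicate 2 or 3 or set 5 replicate 1 (0.0859 to 0.117 and 0.0927 to 0.101). Ifitm3 also lost it without set 5 replicate 2 (0.0662) and Gbp6 without set 5 replicate 3 (0.0529), and Ccl12 without any 1 library except set 6 replicate 1 (0.0661 to 0.135).

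Further rises held without any 1 library. Rnase4, a secreted ribonuclease gene, went from 5.39, 6.29 and 6.70 to 8.73, 9.42 and 9.85, and Ang, which encodes angiogenin and shares a promoter with Rnase4, from 4.56, 4.40 and 5.52 to 7.02, 7.65 and 8.08. This pair rose together, by 3.21 and 2.76 (SE 0.47 and 0.40; limma adjusted p = 0.00147 and 0.00144). Serpina3g and Serpina3f, neighbouring protease inhibitor genes of activated T cells, rose by 1.78 and 1.94 (0.000761 and 0.00501). Gja1, the connexin 43 gene, rose by 2.57 (0.00058), Cd63, a tetraspanin gene of secretory granules, by 2.44 (0.00566) and S100a4, a calcium-binding protein gene of effector cells, by 1.87 (0.00414). Odc1, the first enzyme of polyamine synthesis, rose from 13.89, 14.03 and 13.83 to 14.66, 14.89 and 14.74 (difference 0.85, SE 0.11; limma adjusted p = 0.000695). Nfatc1, a factor gene of T cell receptor signalling, rose by 0.55 (SE 0.08; 0.00105), and Bcl2a1b and Bcl2l1, survival genes, by 1.46 and 0.77 (0.00327 and 0.00683). Bcl2a1b belongs to a set of near-identical copies, so its value is uncertain. Slc5a11 (3.85), Esm1 (3.76), Serpinf1 (3.53) and Gpx8 (2.94) were also among the largest rises, and Ermn (3.19). Each of Slc5a11, Esm1, Serpinf1 and Gpx8 lost the call without set 6 replicate 2 (limma adjusted p = 0.056, 0.0554, 0.0673 and 0.162). Set 6 replicate 3 ended it for Esm1, Serpinf1 and Gpx8 (0.0667, 0.0516 and 0.133), set 5 replicate 1 for Esm1 and Gpx8 (0.0645 and 0.181), and set 5 replicate 3 for Gpx8 (0.066), which also lost it after centring (0.0604).

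**Figure D3:**
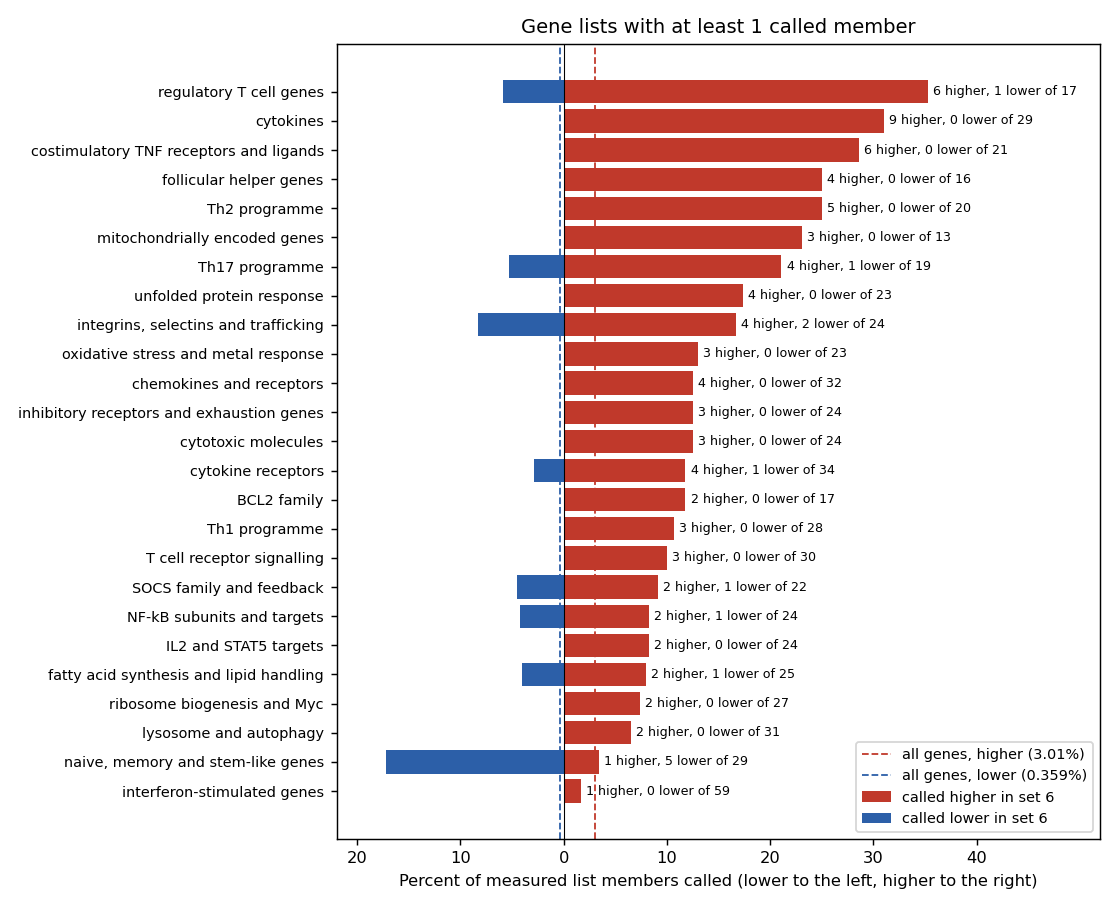
Bars give the percent of measured members of each gene list called higher (red, to the right) or lower (blue, to the left) in wild-type set 6 by limma at an adjusted p under 0.05, for lists with at least 1 called member apart from cell type markers; dashed lines give the shares over all genes, 3.01% higher and 0.359% lower. Regulatory T cell genes (6 of 17 higher) and cytokines (9 of 29) have the longest bars to the right, and naive genes (5 of 29 lower) the longest to the left.

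Several lists of growth, division and metabolism had no call. None of 40 DNA replication, 40 mitosis, 52 histone, 25 cholesterol synthesis, 42 ATF4 response, 43 oxidative phosphorylation, 43 glycolysis, 46 ribosomal protein or 25 p53 target genes was called by limma. At an unadjusted p under 0.05, 4 replication, 4 mitosis and 3 histone genes were lower, 3 oxidative phosphorylation genes higher and 1 glycolysis gene higher, with 1 ribosomal protein gene each way, 3 p53 targets higher and 1 lower, and no cholesterol or ATF4 gene. At that threshold 2249 of all 12547 genes passed in either direction. With the block, 9 mitosis, 5 histone, 2 replication, 1 cholesterol and 1 ribosomal protein gene were lower, where 2.45% of all genes were. In that fit 9 glycolysis, 4 p53 target, 3 oxidative phosphorylation and 2 ATF4 genes were higher, where 9.64% of all genes were. Of the 40 mitosis genes 19 had lower, non-overlapping values in set 6, against 7.25% of all genes. Of the lists of metabolism with calls, lipid handling had Plin2 and Pparg higher (8%) and Acsl6 lower (4%) of 25. Ribosome biogenesis and Myc had Odc1 and Mycn higher of 27 (7.4%). Over all genes 3.01% were higher and 0.359% lower. The call on Plin2 was lost without set 6 replicate 2 or 3 or set 5 replicate 1 or 2 (limma adjusted p = 0.0522 to 0.105), that on Pparg without any 1 library except set 5 replicate 3 (0.0692 to 0.187) and that on Mycn without any 1 except set 6 replicate 1 (0.0744 to 0.14). Pparg and Mycn also lost it after centring (both 0.0669), and Pparg with the block (0.0901). With the block 7 of 24 immediate early genes were lower, where 3 were lower at an unadjusted p under 0.05 and none was called without the block. Mki67, the proliferation marker, had 12.91, 12.86 and 12.81 in set 5 and 12.66, 12.79 and 12.61 in set 6, a difference of -0.17 (SE 0.20; limma adjusted p = 0.725). Myc, a growth factor-induced regulator, differed by -0.33 (0.43; 0.0175 with the block). Slc2a1, the main glucose transporter of T cells, differed by 0.14 and Hmgcs1, an early enzyme of cholesterol synthesis, by -0.07. Of 8 measured Id and E protein genes none was called by limma (2 higher at an unadjusted p under 0.05), and Id2 differed by 0.36 (limma adjusted p = 0.236; 0.0071 with the block).

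The secretory pathway had calls of small size. Of 23 measured genes of the unfolded protein response 4 were higher (17.4%, all genes 3.01%) and none lower, with a median of 0.27. These were Hsp90b1 (0.43), an ER chaperone gene, the stress sensor gene Atf6 (0.42), and Pdia3 (0.31) and Canx (0.30), which fold glycoproteins. With the block 15 were higher (all genes 9.64%) and none lower, and after centring 1 was higher (all genes 1.49%). Of 71 measured genes of ER to Golgi traffic, counted after the values were seen, 13 were higher (18.3%, all genes 3.01%) and none was lower. The median of these 71 differences was 0.15, against 0.06 over all genes, and 64 were above 0. After centring 4 genes were higher (all genes 1.49%). Hsp90b1 stood at 14.48, 14.46 and 14.42 in set 5 and at 14.85, 14.91 and 14.89 in set 6. Its difference was wider than the spread within sets, which the equalizing within groups had narrowed. The call on Hsp90b1 was lost without set 6 replicate 2 or 3 or set 5 replicate 1 or 3 (limma adjusted p = 0.0514 to 0.067), those on Atf6 and Canx without any 1 library (0.0558 to 0.114 and 0.061 to 0.109), and that on Pdia3 without any 1 except set 6 replicate 1 (0.073 to 0.161). Atf6, Canx and Pdia3 also lost it after centring (0.0852, 0.111 and 0.132). Of 13 mitochondrially encoded genes, which can move with RNA quality, mt-Nd1, mt-Nd2 and mt-Nd4 rose (23.1%, all genes 3.01%). They rose by 0.35, 0.34 and 0.46, with a list median of 0.35, and with the block 11 were higher (all genes 9.64%). The part of RNA quality in the other values was not tested. The call on mt-Nd2 was lost without any 1 library (0.063 to 0.172) and after centring (0.131), and that on mt-Nd4 without set 6 replicate 2 or 3 or set 5 replicate 1 or 3 (0.0531 to 0.0775).

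The same step was measured in Id3 KO cells, whose 6 libraries of sets 5 and 6 belong to neither wild-type group. Both comparisons took the spread of each gene from the same fit over 18 libraries, so their calls are not independent. There 1501 genes were called, 1246 higher (9.93%) and 255 lower (2.03%). Of the 423 genes called in wild-type cells, 403 (95.3%) had the same sign in KO cells, against 65.6% of all genes. In all, 211 were called in both in the same direction, which is 49.9% of the wild-type and 14.1% of the KO calls, and 2 were called in opposite directions. The median difference of the 378 genes called higher was 0.71 in wild-type and 0.47 in KO cells, but these genes had been selected on the wild-type values. Klf2 went from 10.79, 10.76 and 10.77 to 9.57, 9.03 and 9.10 in KO cells (difference -1.54, SE 0.16). Pdlim4 differed by -2.95 and Il5 and Il13 by 2.90 and 2.08, all called in KO cells too (limma adjusted p = 0.000161, 0.000569 and 0.00276). Il21 stood at 12.61, 11.11 and 11.47 in KO set 5 and 12.48, 11.26 and 11.73 in KO set 6 (difference 0.09, SE 0.44; limma adjusted p = 0.92). Its KO libraries were all above the wild-type libraries of both sets. Acsl6, which fell in wild-type cells, rose by 1.21 in KO cells (limma adjusted p = 0.0215). In cholesterol synthesis, 15 of 25 genes were higher in KO cells, and in the ATF4 response 16 of 42, where none was called in wild-type cells.

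**Figure D4:**
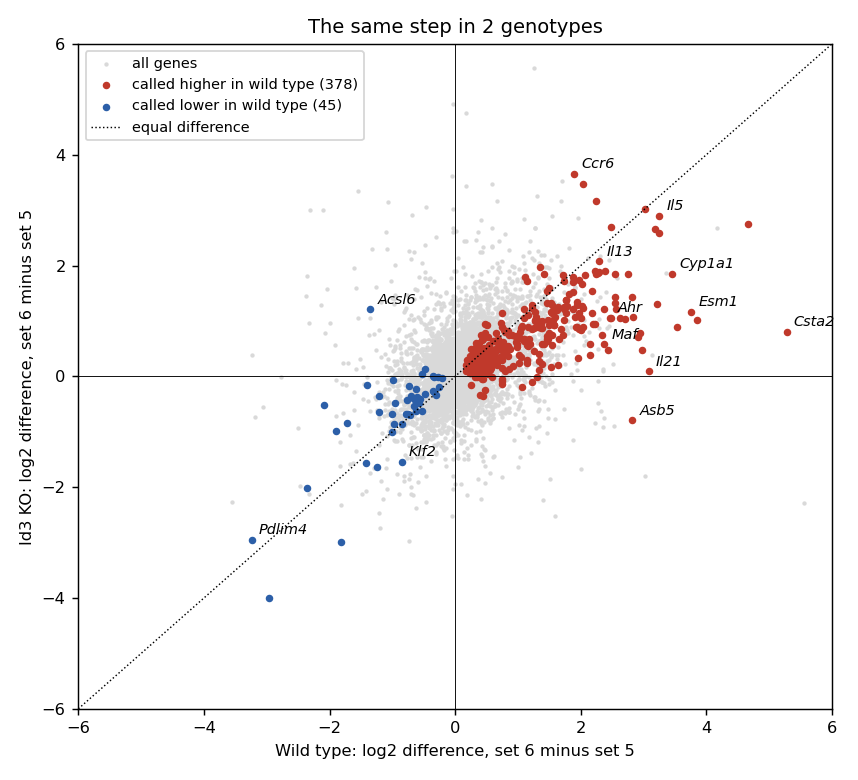
Each point is a gene, with the log2 difference of set 6 minus set 5 in wild-type cells on the x axis and in Id3 KO cells on the y axis; red and blue points are the 378 and 45 genes called higher and lower in wild-type cells, and the dotted line marks equal differences. Pdlim4 and Il5 lie near the line, while Il21, Maf and Csta2 lie below it, with Il21 at 0.09 on the KO axis.

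The difference between the genotypes in this step was tested directly. By limma without the block, no gene passed (smallest adjusted p = 0.148; 1320 genes at an unadjusted p under 0.05), and 1 gene, Hbb-bt, did without wild-type set 5 replicate 3. With the replicate number as a block within each genotype 509 genes (4.06%) passed, and the values below are from that fit. It used only the libraries of sets 5 and 6, in which no gene passed without the block. The KO difference minus the wild-type difference was -2.98 for Il21 (SE 0.28; limma adjusted p = 0.00914), -1.79 for Maf (SE 0.17; 0.00914), -1.42 for Ahr (SE 0.20; 0.0232) and -1.60 for Cyp1a1 (SE 0.21; 0.0222), so the rise of these genes was smaller in KO cells in this fit. For Ccr7 it was -0.91, a larger fall in KO cells (-1.46) than in wild-type cells (-0.55; limma adjusted p of the difference 0.0102). The KO difference minus the wild-type difference was -0.35 for Il5 and -0.21 for Il13, and neither passed (limma adjusted p = 0.723 and 0.439).

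The genes of the wild-type comparison were also looked up in set 3, whose 6 libraries enter neither of the 2 wild-type groups. They do enter the same fit, so the calls share its spread and are not independent. There 1427 of 12547 genes (11.4%) differed between KO and wild-type cells by limma, 868 higher (6.92%) and 559 lower (4.46%) in KO cells. Of the 378 genes called higher in wild-type set 6, 277 had a positive KO minus wild-type difference in set 3, 101 were called higher in KO cells and 9 lower, with a median of 0.18 against -0.07 over all genes. Of the 157 genes that were higher by a log2 difference of 1 or more, 135 had a positive difference, 70 were called higher in KO cells and 1 lower, with a median of 0.96. Of the 45 genes called lower, 30 had a negative difference, and 7 were called lower and 3 higher in KO cells. For comparison, 6676 of all 12547 genes had a set 3 difference of the same sign as their difference between the wild-type sets. Among the 423 genes called in wild-type cells, 307 did. Whether genes with large differences in 1 contrast of this fit tend to be called in others was not tested. Il5 was higher in KO cells of set 3 by 4.11 (limma adjusted p = 5.18e-06), Maf by 2.25 (0.00153), Il21 by 2.05 (0.00699) and Ahrr by 1.37 (0.00598). Ahr differed there by 0.12 (0.788), Cyp1a1 by 0.96 (0.24) and Klf2 by -0.09 (0.767), and none of these 3 passed. Ccr6, which rose with set 6 in both genotypes, differed by 0.47 in set 3 (0.444).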

How the data were processed

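RNA-seq values of 18 libraries (6 groups of 3) were used, of which 6 form the comparison. RNA was selected by poly(A) and prepared with a directional kit, per the labels' protocols. Per the submitters' processing notes, the authors worked with Salmon 1.9.0, edgeR and limma on GRCm39, with no roles or order given. The deposited values are named log counts and were taken here as log2 values. How the authors normalized them is not stated in the sources read for this work. Values had been equalized within groups (97.0 to 98.4% of sorted values equal within a group), which narrows the spread within groups. The depth per library, and so the counting error, is unknown. The authors' deposited table of contrasts holds, per the file headers, log fold changes and a test score with raw and adjusted p-values. It was used as a check only: it lists 87 genes at an adjusted p under 0.05 for this comparison (80 higher, 7 lower), the same 87 as a test here against a minimum fold of 1.2.

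From the deposited log2 values, 1 linear model with 6 group means was fitted over all libraries with limma 3.58.1 in R 4.3.3, with a variance trend, 12 residual degrees of freedom and Benjamini-Hochberg adjustment over 12547 genes. Genes with an adjusted p under 0.05 were called. No gene fell to the filter, which kept genes whose log2 value was at least 0 in 3 or more libraries. Scripts were tested on simulated data with 200 changed genes of 12547. Of 100 genes at each of 2 sizes of change, 74 and 93 were recovered, with 17 false calls.

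Named genes were the 15 largest rises and falls among called genes with a proper symbol, no overlap of libraries and a higher-group mean of at least 2 on the log2 scale, up to 3 called members of each list in each direction, and fixed reference genes. Further genes and families were named after their values were seen. Some of these are marked so in the text, and the rest are Asb2, Asb5, Gja1, Cd63, S100a4, Serpina3f, Serpina3g, Ang, Il22, Il16, Tgfb3, Tagap, Lef1, S1pr1, Il17a, Hbb-bt, Podnl1, Ncr1, Klra8, Cybb and the less stable members of lists. Some list members are not reported here by name. The members and lists were chosen with earlier results of these data known.

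To check whether replicate numbers pair libraries, each library's deviations from its group mean were correlated across genes with those of the others. Equal numbers of wild-type sets 5 and 6 had r of 0.16, 0.12 and 0.13 and other numbers -0.09 to -0.03. KO cells had 0.34, 0.32 and 0.22 against -0.25 to -0.07. The pairing is therefore a hint from the data, not from the labels, and block values are given where they change a call. Alternatives were other scalings, variance models, filters, groups and added values, the block, and leaving out each library. The block with median centring was added after seeing the data. Block fits used only the libraries of the compared groups, which for the test between genotypes were those of sets 5 and 6.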

Additional observations from a re-analysis of the deposited data

Results flagged for a closer look

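The step from set 5 to set 6 differed between KO and wild-type cells for 509 genes (4.06%) by limma with the replicate number as a block. This was a test of the difference itself, and without the block no gene passed. The KO difference minus the wild-type difference was above 0 for 286 of the 509 and below 0 for 223. The 2 differences had opposite signs for 303, and 64 were among the genes called in wild-type cells. By list, 14 of 40 mitosis, 10 of 52 histone, 12 of 25 cholesterol synthesis, 12 of 42 ATF4 response and 5 of 24 immediate early genes lay above 0 and none below. In the other direction, 8 of 29 naive genes, 6 of 24 IL2 and STAT5 targets and 6 of 30 T cell receptor signalling genes lay below 0, each with 1 above. Hmgcs1 differed by -0.07 in wild-type and 0.48 in KO cells (limma adjusted p of the difference 0.0136 with the block), and Acsl6 by -1.35 and 1.21 (0.0222). Cd69, an early activation marker, differed by -0.02 and 0.40 (0.0222), and Prf1 by 0.98 and -0.16 (0.0277). Among low genes, Il3, a growth factor gene of mast cells and basophils, stood at 4.69, 3.31 and 4.13 in wild-type set 5 and 4.63, 3.79 and 3.55 in set 6, and at 3.82, 2.63 and 1.09 and then 5.94, 6.35 and 6.08 in KO cells (limma adjusted p of the difference 0.0395 with the block).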

How the results depend on the processing

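Counts of called genes moved with the processing. For wild-type set 6 against set 5 the 423 calls (378 higher, 45 lower) became 171 (157, 14) at a log2 difference of 1 or more, 87 (80, 7) against a minimum fold of 1.2, 258 (187, 71) after median centring and 226 (163, 63) after quantile normalization. They became 1239 (1049, 190) with library weights, 643 (530, 113) with the compared groups alone, 1517 (1209, 308) with the replicate number as a block and 1333 (734, 599) with block and centring together. The block fits, too, used the compared groups alone. Leaving out 1 library gave 113 to 385 calls, 98 to 346 higher and 13 to 39 lower; the lone remaining pair was assumed to vary like the other groups. The 1501 KO calls became 264, 75, 943, 931, 519 with the groups alone, 2459 with the block, and 589 to 1647 without 1 library. The test between genotypes gave 509 genes with the block and 0 or 1 without 1 library. Robust moderation, no trend, the filters and an addition of 1 on the linear scale kept the wild-type counts within 349 and 423. Of 129 named called genes 34 kept the call in every alternative run, 41 without any 1 library, 124 with the block and 92 after centring. None of these calls reversed direction. Depth is unknown, so the precision of low values, and of genes at a library's lowest value, cannot be stated. Values equalized within groups may give p-values that are too small.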

Other observations

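Several genes called higher are neighbours in the genome. Besides Il13 with Il5 and Rnase4 with Ang, these are Ctla4 with Icos and Ifi207, Ifi204 and Ifi211 of the PYHIN family. Of 12 measured PYHIN genes, counted after the values were seen, 4 were higher (33.3%, against 3.01% of all genes), Aim2 being the fourth, and 2 after centring. The call on Ifi211 held without any 1 library. Ifi204, Ifi207 and Aim2 each lost the call without any 1 library except set 6 replicate 1 (limma adjusted p = 0.0686 to 0.133, 0.0964 to 0.151 and 0.0545 to 0.18), and Ifi207 and Aim2 also after centring (0.0609 and 0.0812).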
